A study of Mus musculus with 6 samples.

Results

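The endosomal genes described here are those whose symbol on the array starts with Vps, Snx or Chmp followed by a digit. The names stand for vacuolar protein sorting genes, sorting nexins and charged multivesicular body proteins. The array annotation named 58 such genes among the 12393 genes tested, each read from the probe set (the group of probes for 1 transcript) with the highest mean over the 6 arrays. By complex, 6 genes were listed with the HOPS and CORVET tethers. The other groups held 27 genes of retromer and the sorting nexins, 17 of ESCRT and 8 other Vps genes. The 6 include Vps33b, which pairs with Vipas39 instead of with the subunits of these tethers. The mouse reference gene table holds 75 protein-coding genes with such names; the 17 not among the members, Vps8 and Vps33a of the tethers included, were not analysed here.

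Gene expression was measured in total liver RNA of 6 mice. The first group comprised 3 mice labelled Ppara KO, on a C57 background and 1 month old, whose livers had received an adenoviral vector for TFEB. The second comprised 3 Ppara KO mice of the same background and age that were not injected. Both groups thus carry the same knockout label; Ppara encodes a nuclear receptor that senses fatty acids. The 6 arrays are labelled as biological replicates, each from 1 mouse. The question is how the liver's transcripts answer the TFEB vector in mice labelled as Ppara knockouts. The labels give no promoter, dose or interval for the vector, and no mice received an empty vector, so the vector itself and its TFEB cannot be told apart here.

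Endosomes sort what a cell takes up. Retromer, a trimer of Vps26, Vps29 and Vps35, works with sorting nexins to return receptors, among them those that carry new lysosomal enzymes, before they reach the lysosome. ESCRT complexes do the opposite job and bud ubiquitin-tagged membrane proteins into the endosome lumen for breakdown, while HOPS and CORVET tether endosomes and lysosomes to each other before fusion. TFEB is a transcription factor of the MiT/TFE family that activates lysosomal and autophagy genes through a palindromic promoter element known as the CLEAR motif, which is built on an E-box. In hepatocytes these routes handle endocytosed lipoproteins and glycoproteins as well as canalicular and sinusoidal transporters.

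The rises lay mainly in retromer and the sorting nexins, with the core retromer genes Vps26a and Vps29 among the highest. In TFEB-injected livers 10 of the 58 genes were higher and 2 lower than in not-injected livers, by limma on log2 expression (adjusted p under 0.05, Benjamini-Hochberg, all genes tested). That is 20.7% of the members, against 17.9% of all genes tested (9.99% higher and 7.92% lower), so the share of changed members was near the background. Of the 10 genes that rose, 9 belonged to retromer and the sorting nexins, where 37% of the 27 genes were called with a median log2 change of 0.15, and 1 to HOPS. The falls were Snx10 among the sorting nexins and Vps37a in ESCRT. The median log2 change was 0.04 over the members and -0.01 over all genes tested. Removing not-injected array 1, not-injected array 2 or injected array 2 left 4, 6 and 6 members called higher, while 2 were called lower in each case. In the retromer and sorting nexin group those counts were 4, 5 and 5. The share of all genes tested that was called also dropped in those fits, to 10.3%, 10.9% and 9.9%.

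**Figure D1:**
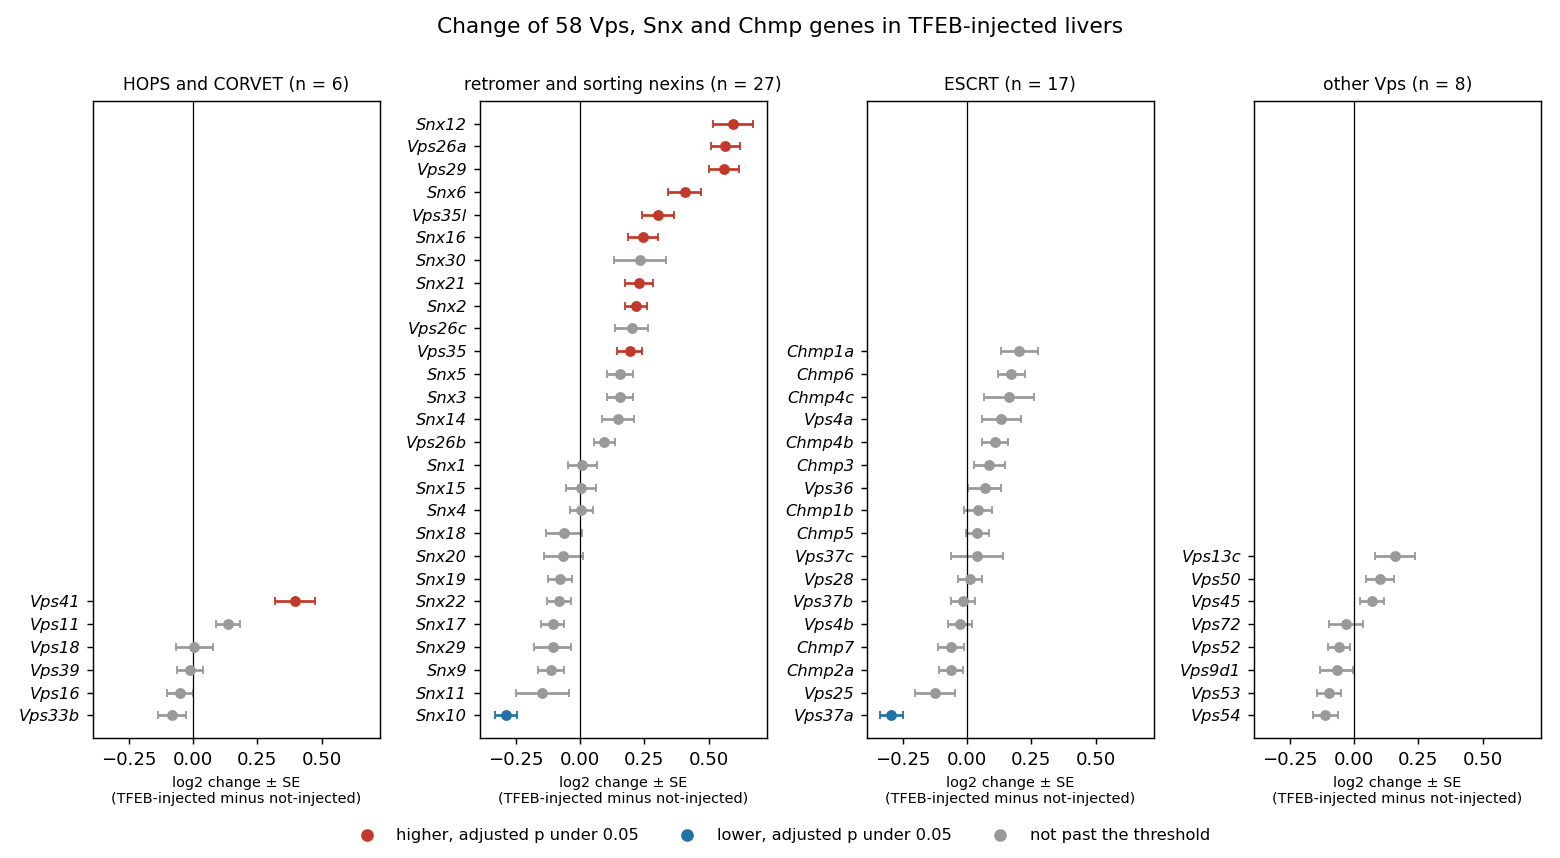
Log2 change (TFEB-injected minus not-injected, x axis) of the 58 members with its standard error, in 4 panels by complex; coloured points passed an adjusted p of 0.05. The highest points in the retromer panel are Snx12, Vps26a and Vps29, while 16 of the 17 ESCRT genes and all 8 other Vps genes are grey.

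The share of arrays that did not overlap between groups is a description without a model. In 23 members every TFEB-injected array lay above every not-injected array (18.2% of all genes tested), and in 9 every one lay below (18.9% of all genes tested). Together these are 32 of 58 members, while 37.1% of all genes tested had groups that did not overlap. Of the 32, 20 did not pass the threshold. All 46 members that were not called had a 95% interval of the change inside ±0.5 on the log2 scale, so a change of 1.41-fold (0.5 on the log2 scale) lay outside the interval of each of them.

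Levels differed little between mice of a group. The median SD over the members was 0.06 in TFEB-injected and 0.04 in not-injected arrays, and 37 of the 58 members varied more among the injected arrays (59.2% of all genes tested did). Correlations between arrays across all genes tested were 0.995 to 0.998 among TFEB-injected arrays, 0.998 to 0.999 among not-injected arrays and 0.989 to 0.993 between the groups. The mouse Tfeb probe set gave 7.59 ± 0.12 in TFEB-injected and 7.55 ± 0.07 in not-injected livers (SD, n = 3 each; adjusted p by limma = 0.777), and that of Ppara gave 9.08 ± 0.04 in TFEB-injected and 8.95 ± 0.07 in not-injected livers (adjusted p by limma = 0.149). The labels state neither the species of the vector's TFEB nor the deleted part of Ppara, so these probe sets check neither label. Hepatocyte markers were strong in every array, as labelled: 7 genes, albumin among them, summed to between 172918 and 178523 in TFEB-injected and between 179877 and 180212 in not-injected arrays (linear scale).

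Markers of other liver cell types were not all level. Of 13 macrophage and Kupffer cell markers 9 were higher and 0 lower (69.2% called, against 17.9% of all genes tested). Their summed linear level was 14412 to 16158 in TFEB-injected arrays, against 10709 to 10968 in not-injected arrays. Of 9 endothelial markers 2 were higher, Stab2 and Lyve1, and 7 did not pass (22.2% called). Over the 9 the median log2 change was -0.01, with 4 above 0 and 5 below. Their summed level was 4976 to 6124 in TFEB-injected and 4578 to 4869 in not-injected arrays. Of 5 neutrophil markers 1 was higher (20% called), with sums of 326 to 357 in TFEB-injected and 341 to 361 in not-injected arrays. Of 9 lymphocyte markers 0 passed (549 to 575 in TFEB-injected and 553 to 576 in not-injected arrays). The deposited values start at 3.08 (log2), so no marker could be at 0, and whether each marker was detected was not tested. The part of macrophages and other cell types in the rises described here was not tested. In whole liver, more cells of a type and more RNA per cell cannot be told apart.

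Of the core retromer genes, Vps26a and Vps29 rose by similar amounts, Vps35 rose less and on only 1 of its probe sets, and Vps26b did not pass. Vps26a, for the arrestin-like subunit that meets cargo adaptors, had 9.65, 9.77 and 9.77 in TFEB-injected livers, against 9.14, 9.13 and 9.24 in not-injected livers (log2 expression). The groups are far apart, and the rise was 1.48-fold (log2 change 0.56 ± 0.06 SE, adjusted p by limma = 0.000738). Vps29, for the small subunit that binds regulators such as the GTPase-activating protein TBC1D5, had 11.32, 11.44 and 11.52 in TFEB-injected livers, against 10.89, 10.83 and 10.88 in not-injected livers. It rose 1.47-fold (0.56 ± 0.06, adjusted p by limma = 0.000979), with the 3 injected arrays spread more widely than the 3 not-injected ones. This brightest probe set is of a kind that can detect related transcripts, and the call held with it left out (0.46, adjusted p = 0.00168). The other probe sets gave 0.46, 0.31 and, for a dim one, 0.0089, and the mean of all gave a smaller change of 0.34 (adjusted p = 0.00336).

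Vps35, for the long helical scaffold of the trimer, moved less. Its values were 11.24, 11.28 and 11.33 in TFEB-injected livers, against 11.08, 11.14 and 11.05 in not-injected livers, which do not overlap but lie close. The rise was 1.14-fold (0.19 ± 0.05, adjusted p by limma = 0.0371). It no longer passed when any single not-injected array was removed (adjusted p = 0.118, 0.0582 and 0.112 for replicates 1, 2 and 3) or when injected array 2 or 3 was (adjusted p = 0.116 and 0.0645). A dimmer Vps35 probe set went the other way, with a log2 change of -0.21 (SE 0.095), and the mean of both gave -0.01. The direction for Vps35 therefore holds for its brighter probe set alone.

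Vps26b, for the alternative Vps26 subunit, had 8.48, 8.49 and 8.46 in TFEB-injected livers, against 8.41, 8.38 and 8.36 in not-injected livers. The change of 0.09 ± 0.04 did not pass the threshold (adjusted p by limma = 0.176), and the mean of its probe sets gave -0.0029. Retromer thus had 3 of its 4 Vps genes called higher, while 9.99% of all genes tested were called higher. Of these 3, Vps26a and Vps29 stayed called under all 15 alternative ways of processing. Vps35 stayed called under 8 of the 15, and its rise rests on its brighter probe set alone.

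**Figure D2:**
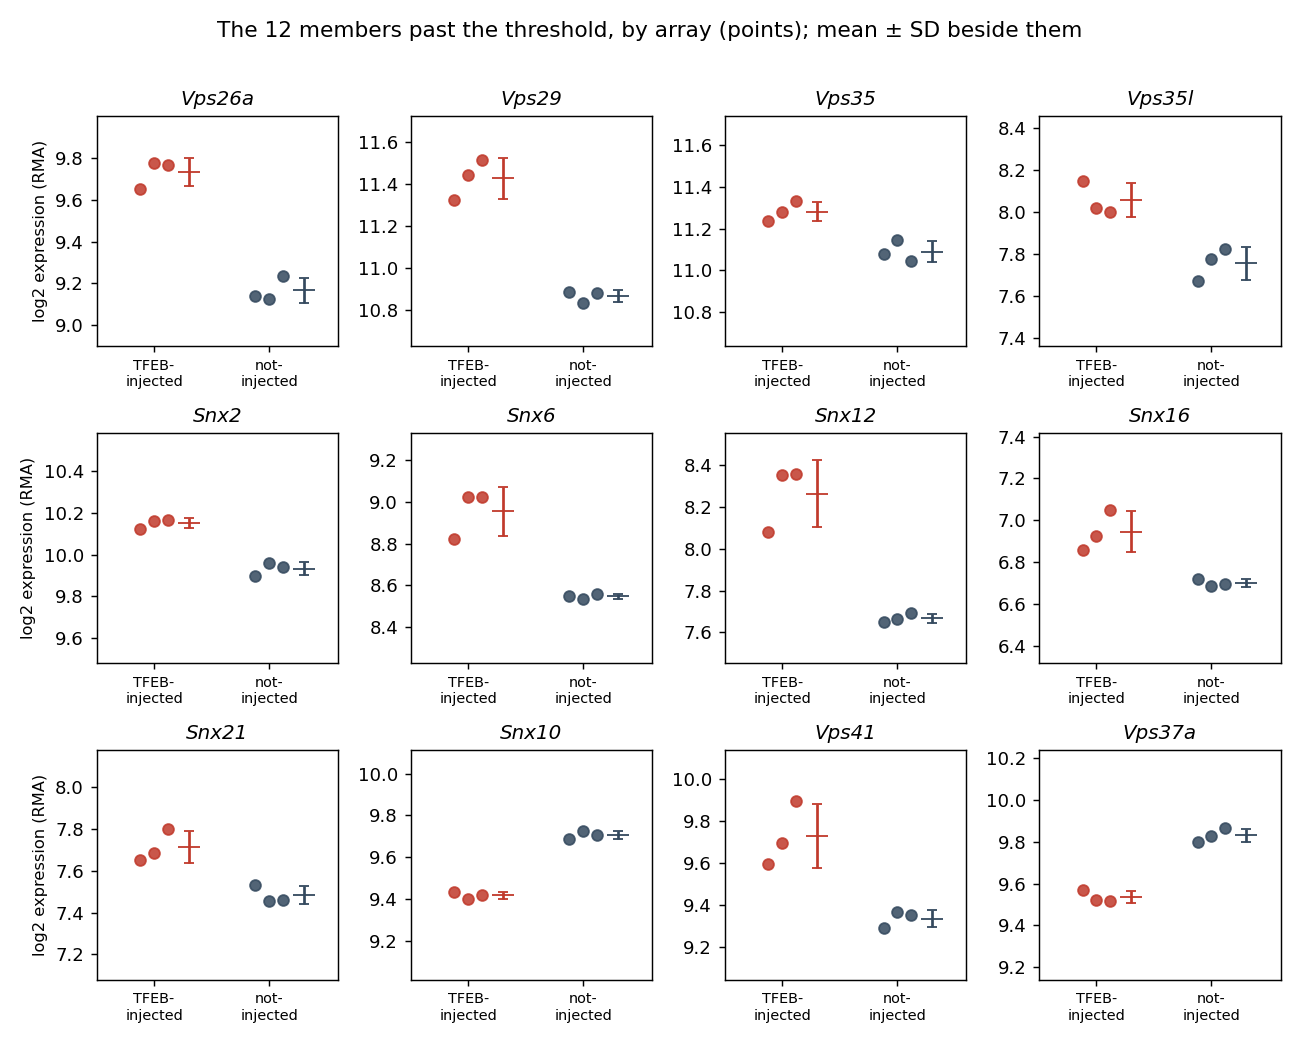
Log2 expression (RMA) of each array for the 12 members past the threshold, TFEB-injected left of not-injected in each panel, with the mean ± SD beside the points; every panel spans the same range of log2 units. In each of the 12 genes the groups do not overlap, and Snx10 and Vps37a are those lower in TFEB-injected livers.

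Promoter sequences are shown for 3 genes, to compare them. Vps26a, which rose, and Vps16, which did not, share the full CLEAR palindrome near their start. Vps29, which rose as much as Vps26a, has no E-box of the form CACGTG, the only form searched, in its window. Each run is the 250 bases before the annotated transcript start from RefSeq (build GRCm38.p6), written 5′ to 3′ on the gene's strand with the palindrome in capitals. Vps26a lies on the minus strand (chr10:62486806-62487055, upstream of the first of 2 annotated starts), Vps16 on the plus strand (chr2:130424070-130424319) and Vps29 on the plus strand (chr5:122354078-122354327).
Vps26a: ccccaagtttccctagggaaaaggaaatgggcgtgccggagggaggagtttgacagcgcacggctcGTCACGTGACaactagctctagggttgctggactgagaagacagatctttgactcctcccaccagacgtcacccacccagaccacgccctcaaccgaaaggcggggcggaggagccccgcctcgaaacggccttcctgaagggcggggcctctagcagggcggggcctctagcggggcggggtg
Vps16: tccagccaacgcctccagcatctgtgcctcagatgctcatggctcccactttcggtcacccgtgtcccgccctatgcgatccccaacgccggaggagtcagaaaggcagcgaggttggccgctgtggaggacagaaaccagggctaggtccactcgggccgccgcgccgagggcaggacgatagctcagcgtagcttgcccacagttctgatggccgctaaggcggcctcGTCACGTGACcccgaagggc
Vps29: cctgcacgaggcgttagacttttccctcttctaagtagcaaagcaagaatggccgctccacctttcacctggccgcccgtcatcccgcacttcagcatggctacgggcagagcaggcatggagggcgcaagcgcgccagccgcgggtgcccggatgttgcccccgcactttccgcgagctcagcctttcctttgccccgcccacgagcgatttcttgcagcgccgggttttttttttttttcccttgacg

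The full palindrome searched was the E-box CACGTG with GT directly before and AC directly after it, and the E-box alone was searched as well. Each reads the same on both strands, and every full palindrome therefore also counts as an E-box. Windows ran from 250 bases before to 50 bases from the start. The first Vps26a start has the palindrome at -184, and its second start, farther downstream, has another at -153, with a plain E-box between the 2 copies. In Vps16 the palindrome begins at -20. Windows were at hand for 38 of the 58 members, of which 2 held the palindrome and 5 the E-box (Vps26a, Vps16, Snx5, Snx18 and Vps50). Among the 9887 tested genes with a window 0.556% held the palindrome and 10.8% the E-box, and among all 32851 windows, of which a gene can have several, the shares were 0.326% and 7.15%. A match describes letters only. Of 55 tested genes with the palindrome 8 were called higher (14.5%) and 1 lower. Of 1069 with the E-box 165 were called higher (15.4%) and 84 lower, with a median log2 change of -0.0021. Of all 12393 genes tested, with or without a window, 9.99% were called higher and 7.92% lower. The shares among genes with a window alone were not computed.

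Retriever, the sister complex of retromer, shares Vps29 and has Vps35l and Vps26c in place of Vps35 and Vps26; it recycles cargo such as LDL receptor family members with the CCC complex. Vps35l had 8.15, 8.02 and 8.003 in TFEB-injected livers, against 7.67, 7.78 and 7.82 in not-injected livers. It rose 1.23-fold (0.30 ± 0.06, adjusted p by limma = 0.0158), the 1 riser among the members in which TFEB-injected replicate 1 was not the lowest injected array. Removing not-injected array 1 or 2 ended the call (adjusted p = 0.0613 and 0.0519), and a dimmer probe set gave -0.07 ± 0.09. Vps26c had 8.50, 8.60 and 8.74 in TFEB-injected livers, against 8.41, 8.43 and 8.39 in not-injected livers. At 0.20 ± 0.06 it missed the threshold (adjusted p by limma = 0.0735). It passed without TFEB-injected replicate 1 (adjusted p by limma = 0.0306) but in none of the other fits that left out 1 array (adjusted p by limma up to 0.174).

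Among partners of retromer and retriever, Washc2, Ccdc22 and Commd9 rose. A list of the actin-nucleating WASH complex, the CCC complex, retromer regulators and cargo receptors had 19 measured genes of 24, of which 3 were higher and 0 lower (15.8% called, against 17.9% of all genes tested; median log2 change 0.07). Washc2, for the WASH subunit that binds retromer, had 10.93, 11.05 and 11.14 in TFEB-injected livers, against 10.28, 10.24 and 10.25 in not-injected livers. It rose 1.72-fold (0.78 ± 0.06, adjusted p by limma = 0.000294), more than any Vps, Snx or Chmp gene measured, and its 3 other probe sets gave 0.77, 0.52 and 0.13.

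Commd9, for a CCC subunit, had 9.55, 9.59 and 9.57 in TFEB-injected livers, against 9.08, 9.15 and 9.08 in not-injected livers. It rose 1.38-fold (0.47 ± 0.05, adjusted p by limma = 0.000649), and its other probe sets gave 0.42 and 0.18. Ccdc22, for a CCC scaffold and named because it completes the count of 3, rose by 0.50 ± 0.07 on the log2 scale, on a single probe set of a kind that can detect related transcripts. The other measured Commd genes lay between -0.08 and 0.07 and none passed. Of the cargo receptors for lysosomal enzymes, Igf2r was at 0.23 ± 0.07 (adjusted p by limma = 0.0551), M6pr at -0.03 ± 0.04 and Sort1 at -0.05 ± 0.06.

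Matches in the 3 retromer partners that rose are shown as runs of 30 bases because they allow comparison with the Vps26a sites; capitals mark the palindrome or, where it is incomplete, the E-box. The second Vps26a palindrome is chr10:62486732-62486761 on the minus strand, and the Commd9 site, at -12 from the start, is chr2:101886240-101886269 on the plus strand. The Washc2 site, the first of 2 E-boxes at -21 and -5, is chr6:116208000-116208029 on the plus strand, and the Ccdc22 site at 27 is chrX:7605377-7605406 on the minus strand (RefSeq, GRCm38.p6).
Vps26a: atggcctacgGTCACGTGACgggcggcggg
Commd9: tgctccggctGTCACGTGACtccagaaaga
Washc2: tgcgccccaggtCACGTGaggacaccatca
Ccdc22: ttcctcgcgcggCACGTGactctctgtcct

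Igf2r, Rab5a and Vac14 hold the palindrome as well, and none of them passed the threshold. Of 47 partner genes with a window, 4 had the palindrome and 12 the E-box. Of those 12, 4 were called and 8 were not, Sorl1, Washc1 and Washc4 of the same partner list among them.

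**Figure D3:**
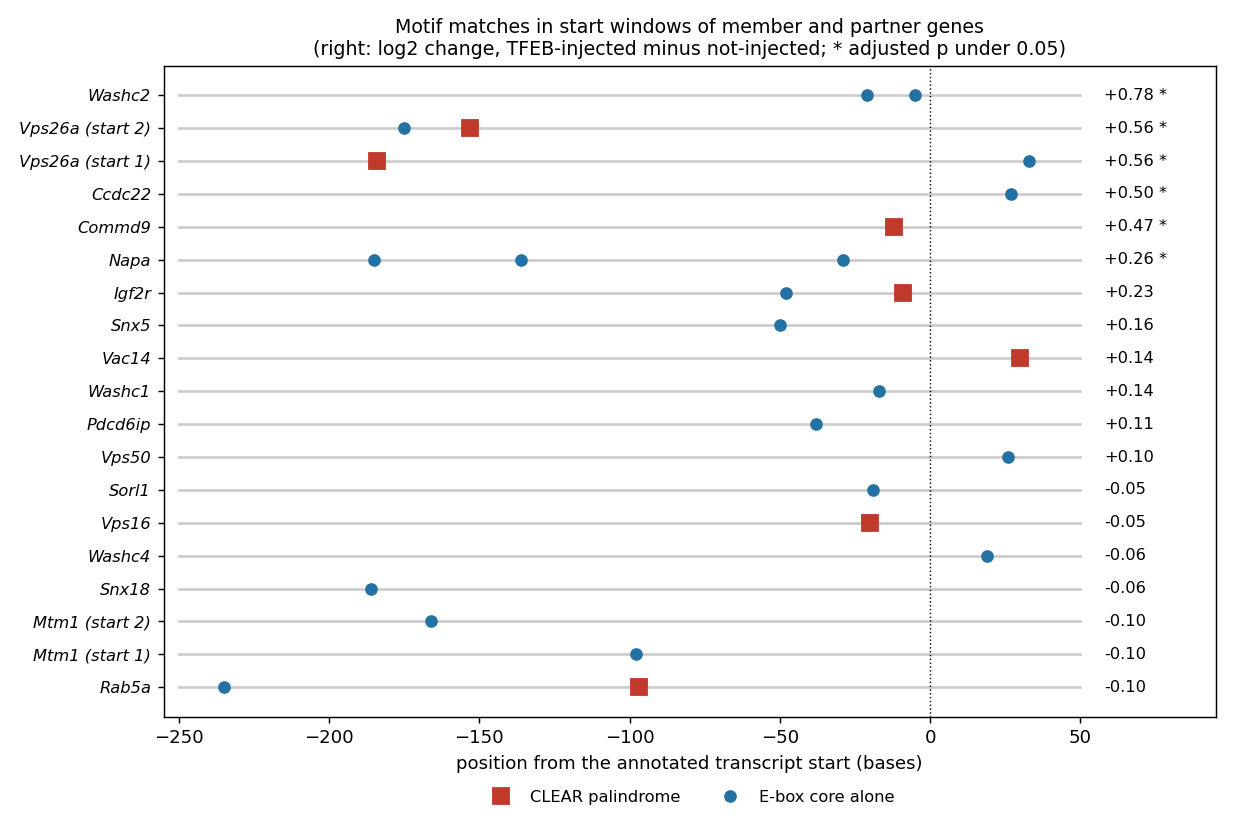
Positions of the CLEAR palindrome (squares) and of E-boxes outside it (circles) from 250 bases before to 50 bases from each annotated start, for members and partner genes with a match; the log2 change stands at the right, with a star where the adjusted p was under 0.05. Genes with the palindrome run from Vps26a at 0.56 to Rab5a at -0.10.

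Sorting nexins carry a PX domain that binds phosphoinositides, and 21 of them were measured. In TFEB-injected livers 5 rose and 1 fell (28.6% called, against 17.9% of all genes tested). The median log2 change was 0.00, with a range of -0.29 to 0.60. Snx12, for a small nexin made of little more than its PX domain, rose most. Its values were 8.08, 8.35 and 8.36 in TFEB-injected livers, against 7.65, 7.66 and 7.69 in not-injected livers. TFEB-injected replicate 1 rose less than the others, and the group rise was 1.51-fold (0.60 ± 0.08, adjusted p by limma = 0.00246). A second Snx12 probe set gave 0.55 ± 0.08.

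The nexins that bend membrane with a BAR domain and form tubules with retromer include Snx1, Snx2, Snx5 and Snx6, which pair as 1 of the first 2 with 1 of the last 2. Snx6 had 8.82, 9.02 and 9.02 in TFEB-injected livers, against 8.55, 8.54 and 8.56 in not-injected livers, a rise of 1.33-fold (0.41 ± 0.06, adjusted p by limma = 0.00515). Its other probe sets gave 0.57 ± 0.06 and 0.14 ± 0.07. Snx2 had 10.12, 10.16 and 10.17 in TFEB-injected livers, against 9.90, 9.96 and 9.94 in not-injected livers. That tight rise was 1.16-fold (0.22 ± 0.04, adjusted p by limma = 0.0145), and it missed the threshold with not-injected array 1 or injected array 2 removed (adjusted p = 0.0664 and 0.0677).

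Their partners did not pass. Snx1 was at 7.62, 7.78 and 7.76 in TFEB-injected livers, against 7.73, 7.69 and 7.72 in not-injected livers, with overlapping groups and a log2 change of 0.01 ± 0.06 (95% interval -0.12 to 0.14). Snx5 had 10.26, 10.23 and 10.33 in TFEB-injected livers, against 10.12, 10.18 and 10.06 in not-injected livers (0.16 ± 0.05, adjusted p by limma = 0.0825). Of its 4 dimmer probe sets, 1 passed when every probe set was tested (0.20 ± 0.05, adjusted p by limma = 0.0321) and 1 went the other way (-0.15 ± 0.07).

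Smaller rises came from Snx16 and Snx21. Snx16, for a nexin of early and late endosomes with a coiled coil, had 6.86, 6.92 and 7.05 in TFEB-injected livers, against 6.72, 6.68 and 6.69 in not-injected livers (1.19-fold, log2 change 0.25 ± 0.06, adjusted p by limma = 0.0267). Snx21 had 7.65, 7.68 and 7.80 in TFEB-injected livers, against 7.53, 7.46 and 7.46 in not-injected livers (1.17-fold, 0.23 ± 0.06, adjusted p by limma = 0.0288). Neither pair of groups overlaps, but neither gene passed once any single not-injected array, or injected array 2, was removed. In that order the adjusted p was 0.0777, 0.0899, 0.0777 and 0.0814 for Snx16 and 0.0603, 0.0982, 0.0882 and 0.0805 for Snx21.

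Snx10 was the 1 sorting nexin that fell. The protein is known for its part in endosome and lysosome acidification and in osteoclast function. Values were 9.43, 9.40 and 9.42 in TFEB-injected livers, against 9.69, 9.73 and 9.71 in not-injected livers. Both groups are narrow and well apart, and the fall was 1.22-fold (-0.29 ± 0.04, adjusted p by limma = 0.00375). Among the nexins that did not pass, the largest change upward was in Snx30, a BAR nexin that pairs with Snx4, at 0.23 ± 0.10 (adjusted p by limma = 0.171), and the largest downward was in Snx11, at -0.15 ± 0.10 (adjusted p by limma = 0.386). Snx30 had 6.52, 6.43 and 6.84 in TFEB-injected livers, against 6.38, 6.31 and 6.42 in not-injected livers. Snx11 had 6.90, 6.80 and 6.48 in TFEB-injected livers, against 6.81, 6.92 and 6.89 in not-injected livers.

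Other nexins with known roles did not pass. Snx3, a retromer adaptor for the Wnt carrier Wntless, was at 0.15 ± 0.05 (adjusted p by limma = 0.0724), and Snx17, which recycles LDL receptor family members with retriever, at -0.11 ± 0.05 (adjusted p by limma = 0.159). Snx4, which serves recycling and autophagy, was at 0.00 ± 0.04 (95% interval -0.10 to 0.11), and Snx9 and Snx18, which act in endocytosis, at -0.11 ± 0.05 and -0.06 ± 0.07. The levels of Snx3 were 11.73, 11.73 and 11.67 in TFEB-injected livers, against 11.49, 11.57 and 11.60 in not-injected livers, which do not overlap.

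Only Vps41 rose among the 6 measured genes listed with HOPS and CORVET, and 0 fell (16.7% called, against 17.9% of all genes tested). The median log2 change was -0.0034. Vps41, a HOPS subunit that binds the late endosome and lysosome side, had 9.60, 9.70 and 9.90 in TFEB-injected livers, against 9.29, 9.36 and 9.35 in not-injected livers. The rise was 1.32-fold (0.40 ± 0.08, adjusted p by limma = 0.0135), with the injected arrays spread widely. With not-injected array 1 removed it did not pass (adjusted p = 0.0575). Its brightest probe set is of a kind that can detect related transcripts. The others gave 0.22 ± 0.08 and 0.10 ± 0.09, and the call was lost with that probe set left out (adjusted p = 0.0896) or with the mean of all (adjusted p = 0.0659).

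The subunits common to both tethers, Vps11, Vps16 and Vps18, did not pass. Vps11 had 7.42, 7.44 and 7.36 in TFEB-injected livers, against 7.30, 7.28 and 7.23 in not-injected livers, groups that do not overlap (0.14 ± 0.05, adjusted p by limma = 0.0914). Vps16 had 7.62, 7.67 and 7.54 in TFEB-injected livers, against 7.66, 7.67 and 7.66 in not-injected livers (-0.05 ± 0.05, 95% interval -0.17 to 0.06). Vps16 is thus a member with the full CLEAR palindrome near its start and overlapping groups.

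Vps18 had 7.04, 7.05 and 7.11 in TFEB-injected livers, against 7.17, 7.10 and 6.92 in not-injected livers, where the groups overlap (0.01 ± 0.07). Vps39, the other subunit specific to HOPS, had 8.24, 8.31 and 8.37 in TFEB-injected livers, against 8.29, 8.33 and 8.33 in not-injected livers (-0.01 ± 0.05, 95% interval -0.13 to 0.11). Vps33b, counted with this group, pairs with Vipas39 instead of with HOPS or CORVET subunits. Its human counterpart is mutated in an inherited syndrome with cholestasis. The values of Vps33b were 7.37, 7.51 and 7.51 in TFEB-injected livers, against 7.57, 7.56 and 7.52 in not-injected livers (-0.08 ± 0.06, adjusted p by limma = 0.353). These groups just fail to overlap. Vipas39 itself was at 0.22 ± 0.08 (adjusted p by limma = 0.0959).

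Partners in tethering and fusion included SNAREs and Rab7 among the genes that rose. Of 12 measured genes from a list of 15, 4 were higher and 0 lower (33.3% called, against 17.9% of all genes tested; median log2 change 0.12). Stx7, for a late endosomal SNARE, had 8.99, 9.14 and 9.14 in TFEB-injected livers, against 8.78, 8.79 and 8.61 in not-injected livers (0.36 ± 0.07, adjusted p by limma = 0.0118). Rab7, for the GTPase that recruits HOPS and retromer, had 10.99, 10.99 and 11.02 in TFEB-injected livers, against 10.80, 10.78 and 10.81 in not-injected livers (0.21 ± 0.04, adjusted p by limma = 0.0146). The others were Napa (0.26 ± 0.05), for the SNARE recycling factor alpha-SNAP, and Stx12 (0.17 ± 0.05), named because they complete the count of 4. Without TFEB-injected replicate 2 the count was 0, and it was 1, 1 and 2 without not-injected replicates 1, 2 and 3, in fits that called 9.9%, 10.3%, 10.9% and 11.7% of all genes tested. Removing injected array 2 ended the call of Stx7 (adjusted p = 0.0555), and Rab7 missed the threshold without that array or not-injected array 1 or 2 (adjusted p = 0.0601, 0.0590 and 0.0578).

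ESCRT gave 1 call. Of 17 measured, 0 rose and 1 fell (5.88% called, against 17.9% of all genes tested). The median log2 change was 0.04, with a range of -0.29 to 0.20. Without TFEB-injected replicate 1, 2 were higher, in a fit that called 17.2% of all genes tested. The fall was in Vps37a, for an ESCRT-I subunit that also acts in autophagosome closure. Its values were 9.57, 9.52 and 9.52 in TFEB-injected livers, against 9.80, 9.83 and 9.86 in not-injected livers, a fall of 1.23-fold (-0.29 ± 0.04, adjusted p by limma = 0.00441). No array of either group comes near the other group, and the second Vps37a probe set gave -0.27 ± 0.07.

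The remaining ESCRT-I genes did not follow. Vps37b, at -0.02 ± 0.05 (95% interval -0.12 to 0.09), and Vps37c, at 0.04 ± 0.10 (95% interval -0.20 to 0.27), encode subunits that can take the place of Vps37a. Vps37c was uneven among injected mice, with 9.68, 9.48 and 9.25 in TFEB-injected livers, against 9.43, 9.45 and 9.42 in not-injected livers. Vps28, the constant ESCRT-I subunit, was at 0.01 ± 0.05. Of ESCRT-II, Vps25 was at -0.12 ± 0.08 and Vps36 at 0.07 ± 0.07, neither past the threshold.

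ESCRT-III is built from Chmp proteins, which polymerise at the neck of the bud. The 9 Chmp genes lay between -0.06 and 0.20, and 0 passed. Chmp1a was highest, at 9.33, 9.37 and 9.55 in TFEB-injected livers, against 9.17, 9.16 and 9.31 in not-injected livers (0.20 ± 0.07, adjusted p by limma = 0.104). Chmp6, which links ESCRT-II to ESCRT-III, had 8.36, 8.49 and 8.48 in TFEB-injected livers, against 8.28, 8.30 and 8.23 in not-injected livers (0.17 ± 0.05, adjusted p by limma = 0.0654). It passed without TFEB-injected replicate 1 (adjusted p by limma = 0.0329) but in none of the other fits that left out 1 array (adjusted p by limma up to 0.212). In Chmp3, singled out after its values were seen, the lead probe set was at 0.09 ± 0.06, while a slightly dimmer one gave 0.26 ± 0.07 and passed when every probe set was tested (adjusted p by limma = 0.0413).

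The ATPases that take ESCRT-III apart, Vps4a and Vps4b, were at 0.13 ± 0.08 (adjusted p by limma = 0.279) and -0.03 ± 0.05 (adjusted p by limma = 0.736). Among 15 measured ESCRT partners 1 rose and 0 fell (6.67% called, against 17.9% of all genes tested). Their median log2 change was 0.03. The riser was Stam, for an ESCRT-0 subunit that binds ubiquitin, with 8.31, 8.33 and 8.26 in TFEB-injected livers, against 7.91, 8.04 and 7.99 in not-injected livers (0.32 ± 0.05, adjusted p by limma = 0.00559). A second Stam probe set gave 0.01 ± 0.11, and the mean of both lost the call (adjusted p = 0.143). Its ESCRT-0 partner Hgs was at 0.05 ± 0.05.

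The 8 other Vps genes gave 0 calls by limma, while 17.9% of all genes tested were called. Their median log2 change was -0.05, with a range of -0.11 to 0.16. The lowest of their adjusted p by limma was 0.165, for Vps54. Vps52, Vps53 and Vps54 belong to GARP, a tether for carriers arriving at the Golgi, and were at -0.06, -0.10 and -0.11. Vps50, which replaces Vps54 in the endosomal tether EARP, was at 0.10 ± 0.05. Vps54 had 9.43, 9.45 and 9.51 in TFEB-injected livers, against 9.54, 9.56 and 9.63 in not-injected livers, groups that do not overlap although the test was not passed.

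Vps13c, for a lipid transfer protein, had 5.24, 5.22 and 5.17 in TFEB-injected livers, against 5.13, 5.15 and 4.88 in not-injected livers (0.16 ± 0.08, adjusted p by limma = 0.215). Vps45, which steers SNAREs, was at 0.07 ± 0.05 and Vps9d1 at -0.07 ± 0.06. Vps72 carries the name but encodes a chromatin protein that handles histone H2A.Z; it was at -0.03 ± 0.07. Among 15 endosomal phosphoinositide genes 1 was higher and 0 lower (6.67% called, against 17.9% of all genes tested, median log2 change 0.05). That gene was Zfyve16, for an endosomal protein with a FYVE domain (0.35 ± 0.06, adjusted p by limma = 0.00841), while the lipid kinase gene Pik3c3 was at -0.0009 ± 0.05. Without TFEB-injected replicate 3, 2 of the phosphoinositide genes were higher, in a fit that called 19.4% of all genes tested. Without TFEB-injected replicate 2, 1 was lower, in a fit that called 9.9%.

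Related genes were also set against each other. In 12 pairs of related members, chosen after their values were seen, the difference of the log2 changes was computed within each array and compared between groups. The change of Vps26a exceeded that of Vps26b by 0.47 ± 0.06, and that of Snx12 exceeded that of Snx3 by 0.44 ± 0.10. The BAR nexin pairs gave 0.25 ± 0.08 for Snx6 over Snx5 and 0.21 ± 0.05 for Snx2 over Snx1. The change of Vps37a differed from that of Vps37b by -0.28 ± 0.04 and from that of Vps37c by -0.33 ± 0.11.

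In 9 of the 12 pairs the arrays of the groups did not overlap, which gives the smallest p that 3 against 3 arrays allow (two-sided exact permutation test, p = 0.10; 0.13 after Benjamini-Hochberg adjustment over the 12 pairs). This design cannot reach 0.05 for such a test. Because the pairs were picked with values known and many hold a called gene, the count only describes them. The share among other pairs of genes was not computed. Vps4a and Vps4b, Vps35l and Vps35, and Chmp4b and Chmp4c overlapped (exact permutation p = 0.30, 0.30 and 0.80).

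**Figure D4:**
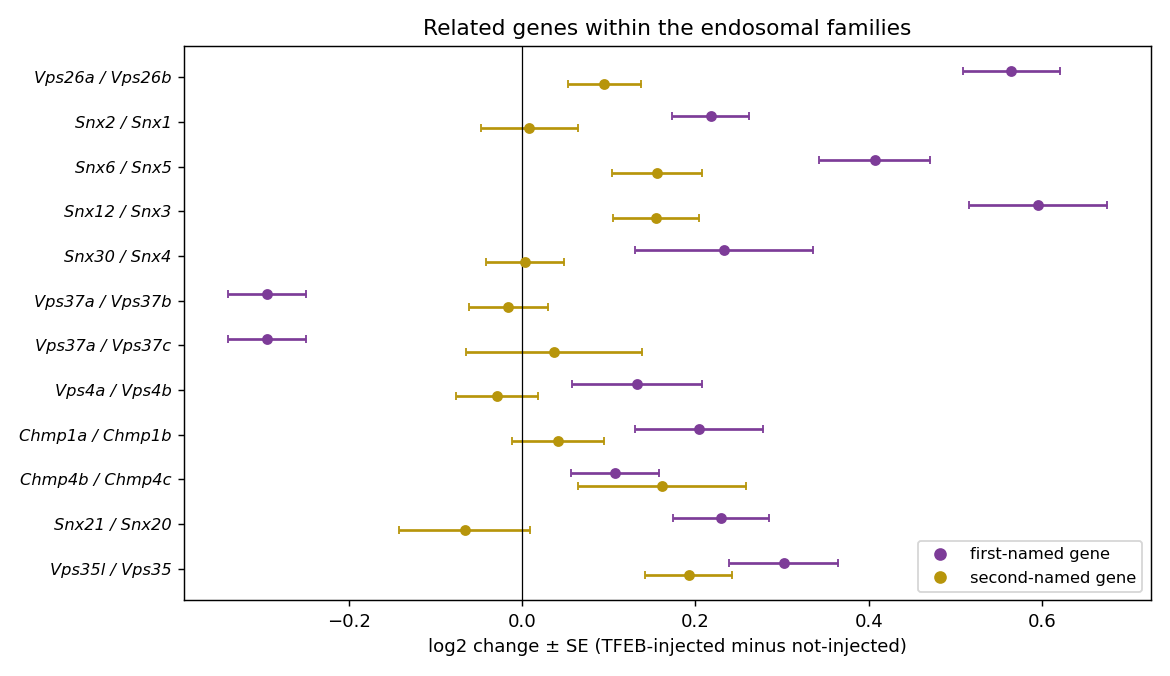
Log2 change (TFEB-injected minus not-injected, x axis) with its standard error for the genes of 12 related pairs, the first-named gene above the second. Vps26a at 0.56 and Vps26b at 0.09 stand farthest apart.

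The injected arrays differed among themselves. TFEB-injected replicate 1 was the lowest injected array in 9 of the 10 members that rose, and in 61.7% of the 1238 genes called higher in the whole table. The call count over the members was 10 higher genes with all arrays and 13 without that array, where 17.2% of all genes tested were called.

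Several members have more than 1 probe set, which offers a second reading. Of 25 such members, 6 had a probe set with the opposite sign. For the 12 called members, 9 of 11 further probe sets had the sign of the lead probe set, and 5 of these also passed when every probe set was tested. The exceptions in sign among the called members were Vps35 and Vps35l. Over all members, 29 of 35 further probe sets had the sign of the lead, a similar share. When every probe set was tested, 16.6% of the lead probe sets of all genes passed. Vps26a, Snx2, Snx10, Snx16 and Snx21 have a single probe set and no such check.

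**Figure D5:**
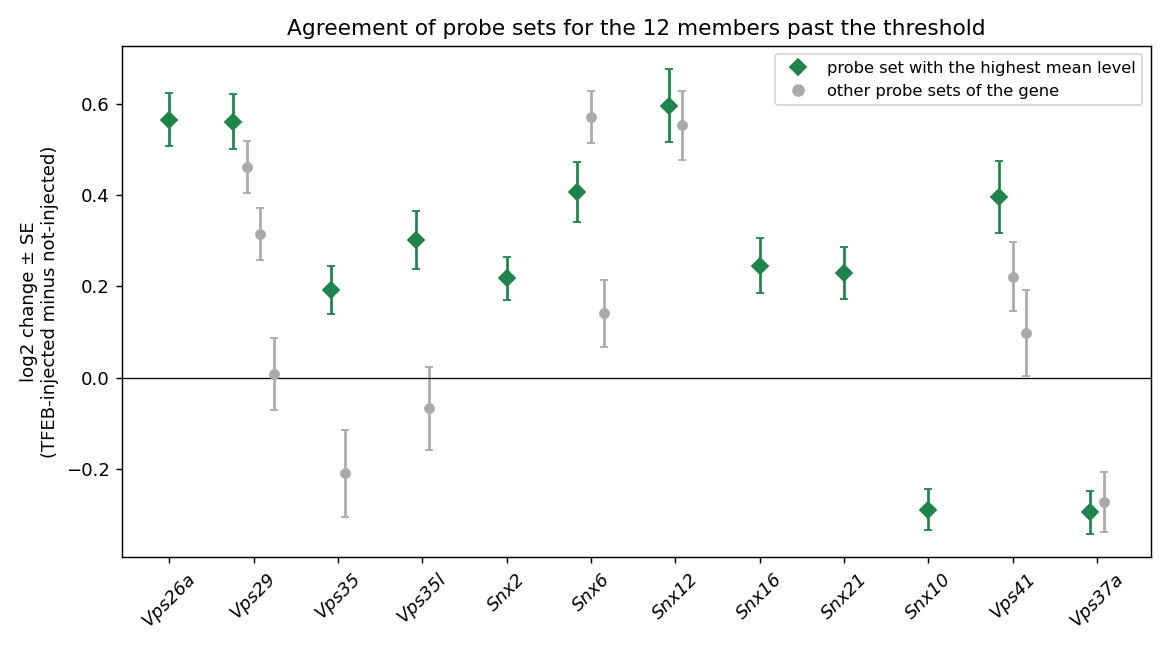
Log2 change (TFEB-injected minus not-injected, y axis) with its standard error for every probe set of the 12 members past the threshold; diamonds are the probe sets with the highest mean level and circles the others, in falling order of level. Those of Snx12 and of Vps37a lie close together, while those of Vps35 lie on both sides of 0.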

How the data were processed

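Liver RNA of 6 mice was hybridised to 1 array each. Per the labels' protocols, RNA came from RNeasy kits and was labelled as biotinylated cRNA with an Affymetrix kit. The deposited values are log2 expression per probe set, made by the authors with RMA in affy, per the submitters' processing notes; no version is given there. They run from 3.08 to 15.20. RMA sets all arrays to 1 distribution, which hides overall shifts, and compresses dim changes. The number of arrays limits precision.

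Of 22690 probe sets, 64 controls and those without exactly 1 symbol were left out; 20380 for 12393 genes remained. Changes are TFEB-injected minus not-injected, fitted with limma 3.58.1 (R 4.3.3; lmFit, eBayes) and checked on simulated data. "Rose" and "fell" mean an adjusted p under 0.05; changes are ± SE, levels ± SD. Intervals are 95%. Figures used matplotlib 3.10.9.

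Members and lists were chosen with earlier results of these data known. The rule for named genes took every called member, HOPS, CORVET and retromer subunits, the 2 largest uncalled changes per group, members whose probe sets disagree in sign with 1 called, and the 2 smallest p per direction in partner lists; further members, partners and markers were picked once values were known. The labels give group and replicate number. Numbers did not pair samples: deviations of same-numbered arrays correlated at 0.01, -0.13 and -0.11. Alternatives were the mean of probe sets, median-centred arrays, omission of _x_at and _s_at probe sets, omission of dim genes, cyclic loess, an intensity trend with robust prior, array weights, the replicate block, every probe set, and leaving out each array. Promoter windows are from RefSeq.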

Additional observations from a re-analysis of the deposited data

How the results depend on the processing

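Of the 12 called members, 6 (Snx10, Snx12, Snx6, Vps26a, Vps29 and Vps37a) stayed called in the same direction under all 15 alternatives run. Array weights (0.33 for TFEB-injected replicate 3, 3.73 for TFEB-injected replicate 2) called 33.2% of all genes tested. Members were then 17 higher and 4 lower, with 2 HOPS genes higher, 3 retromer and nexin genes lower and 4 ESCRT genes higher. Among partners, 6 of retromer, 3 of ESCRT and 3 phosphoinositide genes were higher, and 1 tethering gene lower. The replicate block called 12.4% of all genes tested. With it 5 members, 4 of them in retromer and nexins, and 2 tethering partners were higher. The labels do not say that the numbers pair the mice. The mean of all probe sets left 0 HOPS genes and 0 ESCRT partners higher, and omitting _x_at and _s_at probe sets left 0 HOPS genes higher and 1 retromer partner lower. Without dim genes, where 36.5% of the 6197 genes left were called (17.9% in the fit reported), 2 HOPS genes, 1 ESCRT gene and 5 retromer partners were higher. Phosphoinositide genes had 1 lower without dim genes, with cyclic loess and with the trend and robust prior.

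Leaving out each array in turn called 9.9% to 19.4% of all genes tested and gave 4 to 13 members higher, 0 to 1 in HOPS, 4 to 10 in retromer and nexins and 0 to 2 in ESCRT. Tethering partners ran from 0 to 5 higher and 0 to 1 lower, and phosphoinositide genes from 1 to 2 higher and 0 to 1 lower. Sign changes touched only uncalled or weak values. Tfeb was at -0.0554 with array weights and ran from -0.0113 to 0.104 over left-out arrays. Vps18 was at -0.0332 with array weights and ran from -0.0669 (-0.0182 without TFEB-injected replicate 3) to 0.0604. Vps39 was at 0.006 with the mean of probe sets and ran from -0.0418 to 0.0223. The mean of probe sets gave -0.0029 for Vps26b and -0.0084 for Vps35. The cause of these shifts was not tested. With 3 arrays a group, no empty vector and whole liver, small changes, vector effects and cell makeup limit what the values show.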
